A study of Mus musculus with 4 samples.

Results

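Type I interferon-stimulated genes were described here as a module of 44 genes, taken by symbol from a list, and all 44 were among the 32372 gene features of the count matrices. The list was drawn up by known function, but with earlier results of these data known. The cells were CD11b+/CD45+ myeloid cells sorted from the left brain hemisphere of female APP/PS1 mice 4 months old, after a Percoll gradient, and were sequenced with 10x Genomics 3′ v3.1 chemistry. Both groups carry APP/PS1, transgenes that give amyloid deposition in the brain and model part of Alzheimer's disease. The group called cKO here has the genotype APP/PS1:miR-155 cKO (2 libraries), with the microRNA miR-155 deleted in microglia, and the group called Control has the genotype APP/PS1 (2 libraries). The labels used here name no Cre driver and no deleted part of the locus, and a deletion that leaves a transcript cannot be checked with a 3′ tag. The host gene Mir155hg was at 0.183 and 0.459 UMIs per 1000000 UMIs (CPM, scaled with edgeR's TMM factors) in Control and at 0.0297 and 0.0366 CPM in cKO.

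A barcode was used with at least 1000 UMIs (molecules counted once each), at least 500 genes and at most 10% of UMIs from mitochondrial genes. This left 4351 and 2909 barcodes in Control replicates 1 and 2 and 3828 and 2852 in cKO replicates 1 and 2, with median depths between 6158 and 7236 UMIs. The deposited totals lay between 33130800 and 47574406 UMIs per library. Microglia markers were high in all 4 libraries (P2ry12 at 2061 to 2462 CPM, Tmem119 at 913 to 1200 CPM), and libraries shared at most 4 barcodes in any pair. Control replicate 1 went against its label: Xist, the RNA of the inactive X chromosome, was at 0.705 CPM there and at 1738 to 1875 CPM in the other 3 libraries, while the 4 Y-linked genes checked were at 0 to 0.167 CPM in all 4. It is called the library labelled Control replicate 1 where a result rests on it. The file of cKO replicate 2 is named with a run code of its own, while 1 code is common to the remaining 3. Nothing in the labels says how animals were pooled, so the p-values measure the spread between these libraries.

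Type I interferons, the interferon-alpha family and interferon-beta, bind the receptor pair Ifnar1 and Ifnar2, and the kinases Jak1 and Tyk2 then phosphorylate Stat2. Together with Irf9 it is part of the complex ISGF3, which binds the interferon-stimulated response element (ISRE) in promoters and induces the interferon-stimulated genes. In microglia of amyloid models such genes are known both from a small interferon-responsive population and from the plaque-associated neurodegenerative phenotype, called MGnD or disease-associated microglia.

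The element bound by ISGF3 was looked for in the members' promoters. The ISRE core was searched on both strands as GAAA, any 2 bases and GAAA again, from 250 bases before to 50 bases after the annotated gene start (RefSeq, build GRCm38.p6). Of the 34 members with a promoter entry, 20 held a match (58.8%), against 3.63% of 10110 other tested genes and 3.44% of all 32851 promoters. The same core followed by CT, which overlaps the first, was in 11 of 34 (32.4%) against 0.346% of the other tested genes. The GAS element TTCNNNGAA, known from interferon-gamma responses, was in 7 of 34 (20.6%) against 8.31%. The windows of 60 bases that follow run 5′ to 3′ on the strand of the gene, with the matches to the core, or to its reverse complement of TTTC, any 2 bases and TTTC, in capitals. They were chosen to show members that the expression results below turn on: the concentrated members Isg15, Ifit1 and Ifit3 with its near-copy Ifit3b, the broadly detected Bst2 and Ifitm3, the p200 genes Ifi207 and Ifi211, and Slfn8.
Isg15 (chr4:156200850-156200909, minus strand): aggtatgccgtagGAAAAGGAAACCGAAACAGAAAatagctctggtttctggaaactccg
Ifit1 (chr19:34640779-34640838, plus strand): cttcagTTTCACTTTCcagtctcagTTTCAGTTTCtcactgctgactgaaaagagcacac
Ifit3 (chr19:34583382-34583441, plus strand): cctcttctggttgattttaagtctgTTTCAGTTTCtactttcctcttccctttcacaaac
Ifit3b (chr19:34607778-34607837, plus strand): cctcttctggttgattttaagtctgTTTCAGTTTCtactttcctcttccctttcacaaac
Bst2 (chr8:71537562-71537621, minus strand): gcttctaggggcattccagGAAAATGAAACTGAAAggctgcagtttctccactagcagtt
Ifitm3 (chr7:141010708-141010767, minus strand): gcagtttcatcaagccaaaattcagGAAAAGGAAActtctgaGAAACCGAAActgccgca
Ifi207 (chr1:173741816-173741875, minus strand): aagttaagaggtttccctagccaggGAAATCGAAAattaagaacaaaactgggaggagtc
Ifi211 (chr1:173913049-173913108, minus strand): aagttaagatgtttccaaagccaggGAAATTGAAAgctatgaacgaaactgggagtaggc
Slfn8 (chr11:83020824-83020883, minus strand): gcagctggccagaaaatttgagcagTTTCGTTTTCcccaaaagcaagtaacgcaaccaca

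The Isg15 window held 3 overlapping matches, and those of Ifit1, Bst2 and Ifitm3 held 2 each. The windows of Ifit3 and Ifit3b were the same 60 bases in 2 places on chromosome 19. A match is a stretch of letters and was not measured as a bound site.

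Levels of the module's transcripts differed widely between members. The 3′ assay counts transcript ends, so the CPM values carry no length term. Of the 44 members, 7 averaged above 100 CPM and 38 above 10 CPM. Ifi27l2a, a small interferon-induced membrane protein, was at 457.5 and 502.4 CPM in Control and at 351.8 and 287.9 CPM in cKO. Bst2, or tetherin, which holds budding virus at the cell surface, was at 332.3 and 379.7 CPM in Control and at 324.9 and 311.2 CPM in cKO. Lgals3bp, a secreted galectin-binding glycoprotein, was at 328.3 and 352.8 CPM in Control and at 293.4 and 315.4 CPM in cKO. Bst2 and Lgals3bp lay within each other's ranges over the libraries and could not be ordered. Below them came Ifitm3, which blocks virus entry at membranes, at 137.2 to 179.0 CPM, and Trim30a, a tripartite-motif protein, at 142.1 to 163.6 CPM, again with overlapping ranges. The schlafen protein Slfn2, which restrains immune cell proliferation, was at 96.6, 105.2, 98.6 and 123.2 CPM in Control replicates 1 and 2 and cKO replicates 1 and 2. Parp14, an ADP-ribosyltransferase, was at 95.2, 100.5, 97.7 and 114.2 CPM, and Eif2ak2, or PKR, which halts translation on double-stranded RNA, at 92.3, 90.1, 83.9 and 88.1 CPM. In Slfn2 and Parp14 the highest library was cKO replicate 2, and in each of them the lower cKO value lay between the Control values.

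The summed level of the 44 members was 2780 and 2994 CPM in Control and 2659 and 2731 CPM in cKO. Without Ifi27l2a and Ifitm3 it was 2166 and 2312 CPM in Control and 2160 and 2306 CPM in cKO. Ifi27l2a alone made up 16.5% and 16.8% of the sum in Control and 13.2% and 10.5% in cKO. With all members the groups did not overlap, and without these 2 genes they did. The first separation rested on the scaling: without the TMM factors the sums were 2778 and 2830 CPM in Control and 2688 and 2859 CPM in cKO, which overlap.

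To ask which members are switched on in few cells and which are graded over most, every barcode was thinned to 2000 UMIs, which kept 3999 and 2633 barcodes in Control and 3585 and 2666 in cKO. The median barcode held 3 of the 44 members in each library, and the most held 33, 21, 32 and 32 in Control replicates 1 and 2 and cKO replicates 1 and 2. At least 6 members were detected in 19.5% and 20.9% of barcodes in Control and in 18.6% and 21.4% in cKO. At least 10 were detected in 5.63% and 6.08% in Control and in 5.75% and 6.64% in cKO. All 4 libraries thus had barcodes with many members, and the groups overlapped at the threshold of 6. The upper end was shorter in Control replicate 2, where 1 barcode held 21 members and none held more.

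No cell type in this sort should lack these genes, so the background was calculated from free RNA, the barcodes of at most 100 UMIs. A draw of 2000 UMIs from that RNA alone, with genes taken as independent, would give at least 6 members in 9.11% to 12.9% of barcodes and at least 10 in 0.0528% to 0.124%. Its mean number of members, 3.26 to 3.60, was close to the observed mean of 3.67 to 3.91. The share of free RNA in a passing barcode was not measured. A draw wholly from free RNA therefore cannot show how much of a member's detection came from it. At the lower end, 6.95% to 8.14% of barcodes held 0 members, where a draw would give 1.53% to 2.70%. Both ends of the distribution thus lay farther from that draw than the mean did. Single members differed: 21 were detected above such a draw in all 4 libraries, 3 below it in all 4, and 20 above it in some libraries only. Trim30a was detected in 22.0% to 24.8% of barcodes, where a draw would give 16.5% to 20.2%. Ifit3 was detected in 6.20% to 6.56%, within the 6.08% to 7.52% of a draw, and Ifi27l2a in 26.7% to 36.5%, below its draw of 29.0% to 54.2% in each library.

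**Figure D1:**
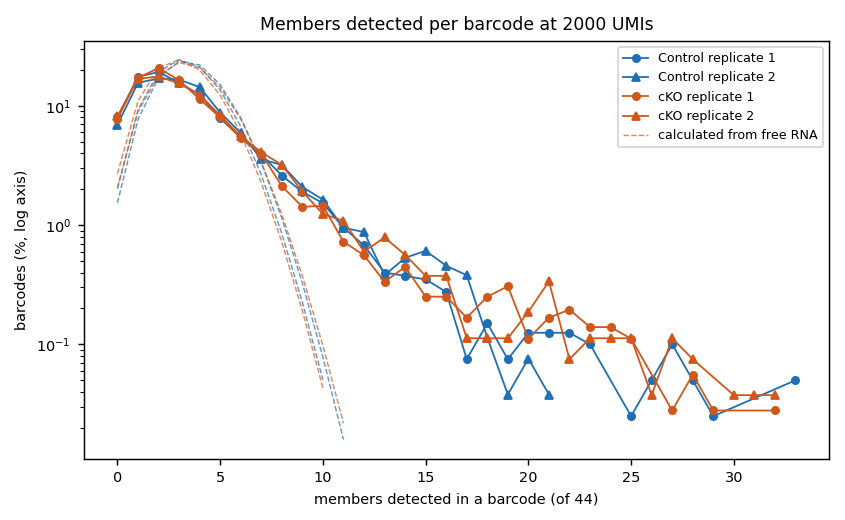
Members detected per barcode (x axis, of 44) against the share of barcodes (y axis, %, log axis) after thinning to 2000 UMIs, with 1 solid line per library (blue Control, orange cKO; circle replicate 1, triangle replicate 2) and a dashed line for a draw from that library's free RNA, cut at 0.01%. The solid line of Control replicate 2 ends at 21 members and those of the other libraries at 32 or 33, while the dashed lines fall away near 10.

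The spread over barcodes was read as the variance-to-mean ratio, which is 1 for a transcript drawn evenly from equal cells. Of the 38 members with a mean of at least 0.02 UMIs per barcode, 16 (42.1%) exceeded 1.2 in all 4 libraries, against 4.09% of 8120 other genes and 1.52% of the 7508 whose means lie in the members' range. The median ratio was 1.27 for the members and 1.03 for the other genes. The highest ratios were those of Ifi27l2a (2.92 to 4.44 over the libraries), Ifitm3 (2.42 to 3.19), Ifit2 (1.39 to 3.14), Ifit3 (1.45 to 3.10) and Isg15 (1.72 to 2.86). The lowest were those of the helicase Dhx58, or LGP2 (0.963 to 1.09), Ifi35 (1.02 to 1.05), Irf9 (1.04 to 1.12), the helicase Ifih1, or MDA5 (1.02 to 1.14), and the GTPase Mx2 (1.04 to 1.17). The first 5 lay above 1.2 and the last 5 below it in every library. For an equal relative spread between cells the ratio rises with the mean, so members of unlike level cannot be ranked by it. In Control replicate 1 the mean was 0.810 UMIs per barcode for Ifi27l2a, 0.0310 for Dhx58 and 0.0220 for Mx2. In CPM over all passing barcodes, Dhx58 was at 16.7, 18.1, 17.8 and 17.7 in Control replicates 1 and 2 and cKO replicates 1 and 2, Ifih1 at 33.9, 37.1, 34.8 and 34.9, and Ifit2 at 38.3, 38.1, 44.6 and 39.4. Ifit2 and Ifih1 thus had nearly the same mean level and different spreads over barcodes. The levels of Isg15 were 61.0, 66.4, 70.9 and 69.5 CPM, of Irf9 63.6, 64.3, 62.3 and 70.0 CPM and of Ifi35 56.8, 55.1, 54.8 and 53.5 CPM, again close to each other.

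Members also differed in where their transcripts lay. For each member, barcodes with at least 6 of the other 43 detected were set against barcodes with at most 2 of them, so that the member itself chose neither class. This is a description, since the other members share the same cells. The first class held 14.9% to 21.4% of barcodes, depending on the member left out and the library. It held most UMIs in every library for Oas3, Ifit1, Ifit3b, Rsad2 and Ifit3, and also for other members, among them Ifit2, Isg15 and Usp18 below. The share of Oas3 rests on few UMIs, since Oas3 was detected in 0.325% and 0.228% of barcodes in Control replicates 1 and 2.

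Ifit1, Ifit2 and Ifit3, which bind foreign RNA and block its translation, were concentrated in the first class. Of Ifit3 UMIs, 72.7% to 85.2% lay there, and its mean was 18.2 to 47.1 times that of the second class. For Ifit2 the share was 72.0% to 86.3% and the ratio 19.8 to 39.7. Ifit1 had 76.5% to 90.4% of its UMIs there, at a detection of 1.90% to 2.81% of all barcodes. In the barcodes of the second class these 3 genes were detected at 0.0559% to 1.53%.

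The same held for the ubiquitin-like modifier Isg15 and for Irf7, the factor that amplifies interferon-alpha transcription. Isg15 was detected in 7.85% to 9.04% of barcodes, with 70.0% to 81.0% of its UMIs in the first class and a ratio of 15.5 to 37.4. Irf7 was detected in 2.98% to 4.16%, with a ratio of 15.3 to 32.0. For Slfn5, a schlafen protein, the ratio was 11.2 to 29.4. Usp18, the protease that removes Isg15 and dampens the receptor, had 64.6% to 75.8% of its UMIs in the first class.

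Irf9, the DNA-binding subunit of ISGF3, lay at the other end. It was detected in 11.4% to 12% of barcodes, against 11.6% to 12.5% for a Poisson draw at its mean. Of its UMIs, 19.8% to 24.2% lay in the first class, hardly more than the 17.5% to 20.4% of barcodes in that class, and its ratio was 1.18 to 1.49. Ifi35 (1.81 to 2.46), Slfn8 (1.88 to 2.78) and Lgals3bp (2.64 to 2.78) followed. The other signalling subunit among the members, Stat2, had a ratio of 3.30 to 4.68. These members were spread over the barcodes with few other members as well.

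Ifi27l2a, Bst2 and Lgals3bp were the most broadly detected members. Ifi27l2a was found in 33.5% and 36.5% of barcodes in Control and in 29.2% and 26.7% in cKO, where an even draw at the same means would give 55.5%, 55.9%, 48.5% and 42.0%. Its detection fell well short of an even draw, although the ratio between the classes was only 4.88 to 5.15. Bst2 was found in 39.4% to 41.5% (even draw 46.5% to 49.4%) with a ratio of 3.22 to 3.48. Lgals3bp was found in 34.9% to 38.1% (even draw 40.5% to 42.8%). Ifitm3 combined wide detection, 14.5% to 18.1%, with a ratio of 8.49 to 14.7.

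**Figure D2:**
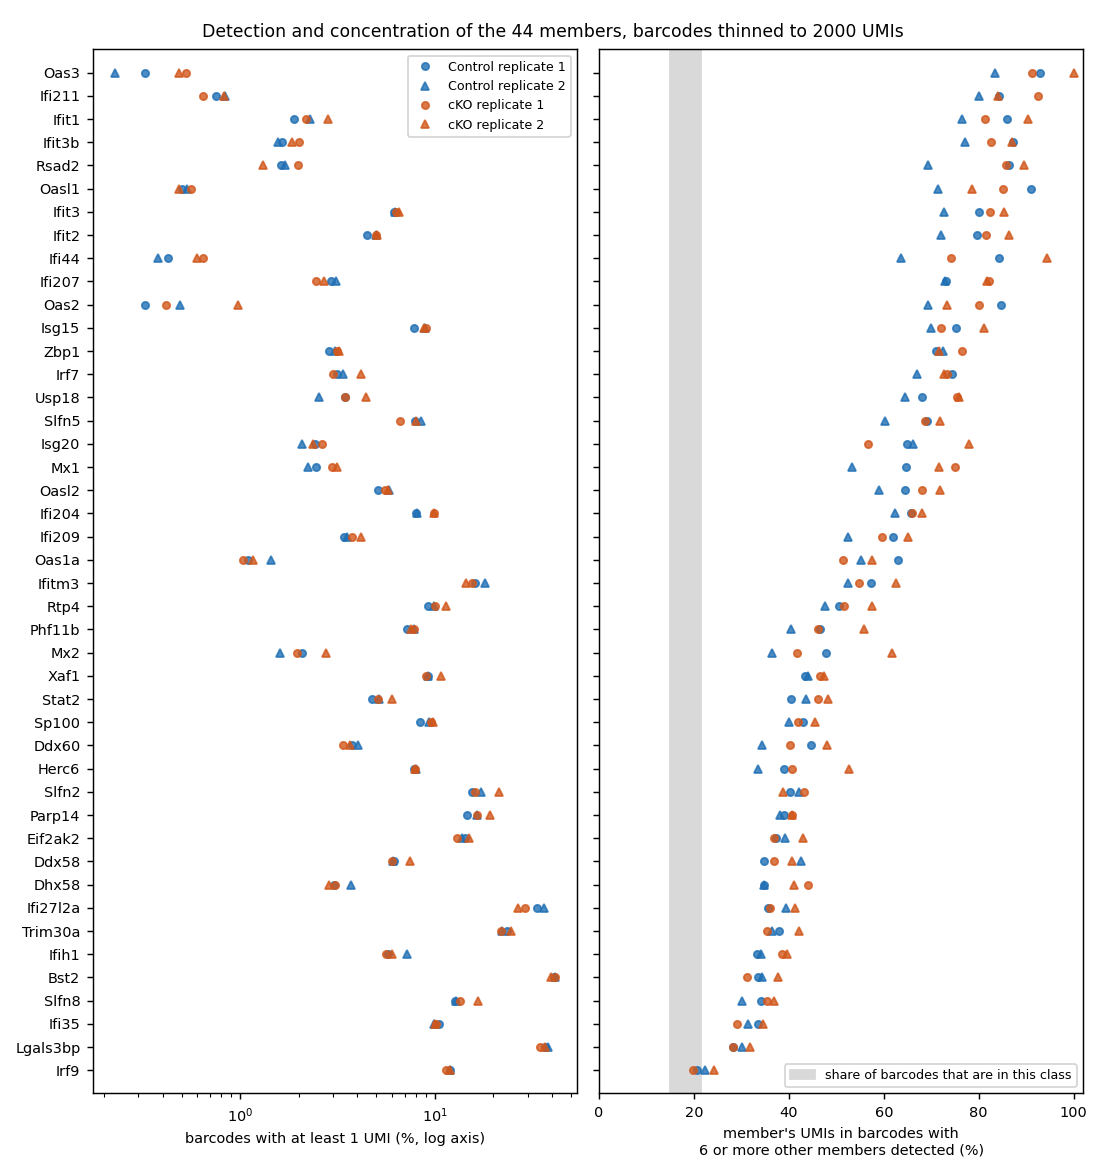
Left: share of barcodes with at least 1 UMI of each member (x axis, %, log axis); right: share of that member's UMIs that lie in barcodes with 6 or more other members (x axis, %), 1 point per library (blue Control, orange cKO; circle replicate 1, triangle replicate 2), with the grey band for the share of barcodes in that class. Irf9 sits at the band at 19.8% to 24.2%, while Ifit3 sits at 72.7% to 85.2%.

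The 20 members with an ISRE core in the promoter window had a median of 56.8% of their UMIs in the first class, against 52.5% for the 14 without one. Their ranges, 34.1% to 91.9% and 21.8% to 81.5%, overlapped over most of their length. Irf9 had no match in this window, and Slfn8 had one.

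MGnD-positive barcodes were those with at least 3 of 12 MGnD genes detected at 2000 UMIs (Clec7a, Itgax, Lpl, Cst7, Spp1, Gpnmb, Axl, Csf1, Igf1, Fabp5, Ch25h and Mamdc2), none of them a member. These were 789 and 509 barcodes in Control (19.7% and 19.3%) and 578 and 249 in cKO (16.1% and 9.34%). In the 4 libraries 302, 180, 229 and 109 barcodes had exactly 3 of these genes, just inside the threshold, and 360, 231, 288 and 133 had exactly 2.

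Members of the module were mostly higher in MGnD-positive barcodes. Of 44, 35 rose and 1 fell in edgeR's quasi-likelihood test on sums per library and state, with the library as a block (adjusted p under 0.05 over all genes), and 8 did not pass. Among all 12956 genes tested 51.3% passed, 26.2% higher and 25.1% lower. The median log2 fold change was 0.52 over the members and -0.03 over all genes. In 33 members the MGnD-positive value was the higher one in all 4 libraries, and in 1 it was the lower one in all 4. The summed level was 4049 and 4465 CPM in MGnD-positive barcodes of Control and 4143 and 4401 CPM in those of cKO, against 2216, 2351, 2149 and 2337 CPM in the rest. This sum is weighted towards few genes: over all passing barcodes the 4 highest members of each library made up 39.5% to 47.2% of it.

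Ifi27l2a had the highest fitted fold change, with those of Ifi44 and Oas3 within their errors of it. It was at 959.8 and 970.2 CPM in MGnD-positive barcodes of Control and at 816.0 and 793.6 CPM in those of cKO, against 281.3, 328.1, 228.6 and 204.9 CPM in the negative ones. All 4 positive values lay above all 4 negative ones. The log2 fold change was 1.78 (SE 0.05, edgeR adjusted p = 5.42e-13).

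Lgals3bp and the membrane proteins Ifitm3 and Bst2 rose with it. Lgals3bp was at 599.2, 622.7, 597.5 and 778.1 CPM in MGnD-positive barcodes (Control replicates 1 and 2, cKO replicates 1 and 2) and at 228.3, 249.3, 207.8 and 236.7 CPM in negative ones. Its log2 fold change was 1.49 (SE 0.05, edgeR adjusted p = 7.46e-12). Ifitm3 was at 244.0, 321.4, 274.0 and 332.9 CPM against 121.1, 125.0, 109.8 and 103.7 CPM and rose by 1.34 (SE 0.07). For each of these genes the positive and negative values did not overlap. Bst2 was at 510.0 to 616.6 CPM against 252.9 to 287.1 CPM and rose by 1.11 on the log2 scale (SE 0.04).

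Among the p200 proteins, relatives of the DNA sensor IFI16, Ifi207 was at 39.6, 50.8, 39.6 and 43.7 CPM in positive barcodes and at 12.5, 14.8, 13.6 and 14.4 CPM in negative ones. Its log2 fold change was 1.65 (SE 0.07, edgeR adjusted p = 2.84e-11). Ifi211 was at 8.17, 10.2, 10.4 and 14.3 CPM against 3.15 to 3.55 CPM and rose by 1.63 (SE 0.14), but 81.5% of the 50-base words of its last 600 bases also occur in Ifi205, so the counting could split these copies. Ifi204 rose by 0.93. Ifi209, which shares 67.9% of such words with Ifi214, did not pass (0.18, edgeR adjusted p = 0.0542).

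The oligoadenylate synthetases, which activate RNase L on double-stranded RNA, and the related Oasl1 and Oasl2 were split. All but Oasl2 were low, and Oasl2 was at 51.4 to 68.0 CPM in positive barcodes. Oas3 was at 5.19, 5.28, 5.28 and 6.37 CPM in positive barcodes and at 1.26 to 2.42 CPM in negative ones, and rose by 1.66 (SE 0.22). Oasl2 rose by 1.10, Oas1a by 1.06 and Oasl1 by 0.84, while Oas2 had a log2 fold change of 0.07 (SE 0.21) and did not pass. Ifi44 was at 5.46 to 11.8 CPM in positive barcodes and at 2.09 to 3.38 CPM in negative ones, and rose by 1.72 (SE 0.19). Oas1a shares 64.1% of its terminal words with Oas1g and is uncertain for that reason.

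Members that were concentrated in few barcodes differed widely in fold change, and Oas3, given above, had one of the largest. Ifit3 was at 56.3, 63.1, 75.6 and 53.4 CPM in positive barcodes and at 43.7, 34.7, 48.2 and 50.3 CPM in negative ones, a log2 fold change of 0.51 (SE 0.09, edgeR adjusted p = 1.50e-04). Ifit1 rose by 0.52 (SE 0.15), but in cKO replicate 2 its positive value, 15.8 CPM, was below the negative one, 19.4 CPM. Isg15 was at 76.6 to 103.7 CPM against 52.3 to 62.6 CPM and rose by 0.67 (SE 0.05). Ifit2 rose by 1.07, Rsad2 by 1.08, Slfn5 by 1.13 and Zbp1, a sensor of Z-form nucleic acids, by 1.28. Ifit3 shares 18% of its terminal words with Ifit3b.

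**Figure D3:**
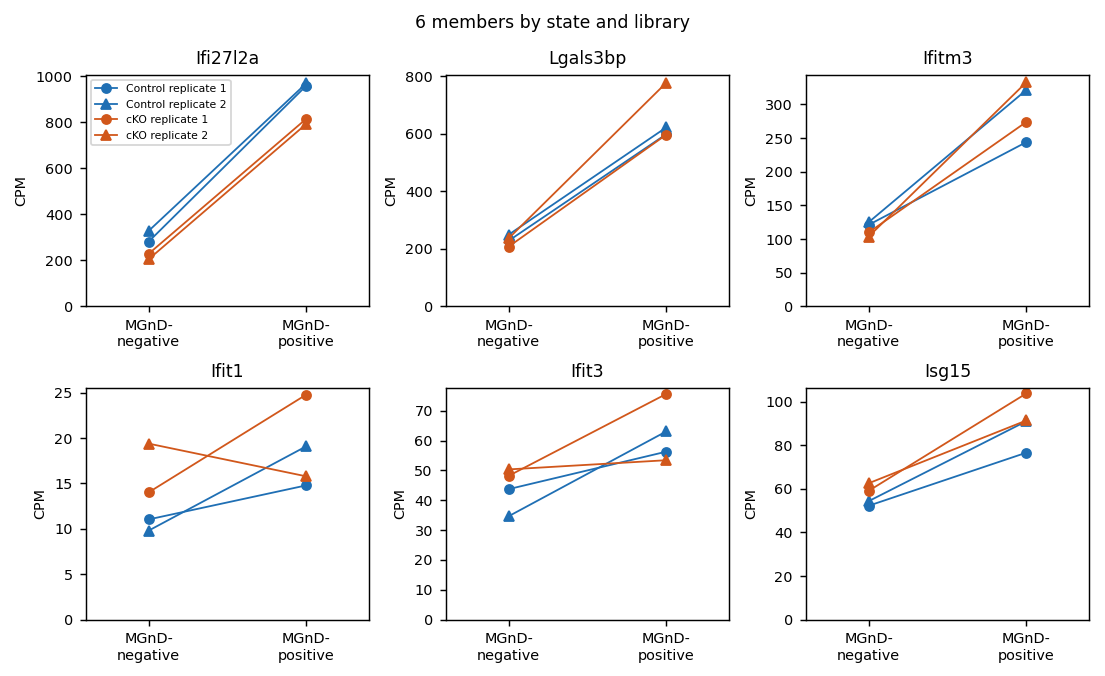
CPM (y axis, from 0) of 6 members in MGnD-negative and MGnD-positive barcodes, with 1 line per library (blue Control, orange cKO; circle replicate 1, triangle replicate 2). Ifi27l2a rises from 204.9 to 328.1 CPM up to 793.6 to 970.2 CPM, while Ifit1 falls in cKO replicate 2 and rises in the other 3.

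The smallest changes that passed were those of Slfn8, Rtp4, Ifi35, Herc6 and Eif2ak2. Slfn8 fell by 0.25 on the log2 scale (SE 0.04, edgeR adjusted p = 1.10e-04), with 66.5, 69.2, 60.9 and 77.4 CPM in positive barcodes and 76.7, 78.9, 76.8 and 94.3 CPM in negative ones. It was the lower one of each pair in all 4 libraries. Rtp4, a receptor transporter protein whose exons overlap Gm45338 on the same strand, was at 53.1, 75.2, 58.8 and 63.1 CPM against 51.9, 56.1, 49.4 and 60.2 CPM and rose by 0.20. Ifi35, a leucine-zipper protein, was at 62.2, 59.3, 60.6 and 55.5 CPM against 51.2, 50.4, 49.6 and 49.9 CPM and rose by 0.25. Herc6, a ligase that attaches Isg15 in mice, was at 51.6, 53.5, 55.1 and 50.1 CPM against 43.6, 41.7, 44.2 and 45.9 CPM and rose by 0.27. These 3 were the higher ones of each pair in all 4 libraries. Eif2ak2 was at 99.8, 102.9, 94.2 and 103.8 CPM against 83.4, 79.9, 75.3 and 80.0 CPM and rose by 0.32.

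Besides Oas2 and Ifi209, the members that did not pass were Ddx58 (-0.11), Parp14 (-0.10), Slfn2 (-0.09), Irf9 (-0.06), the helicase Ddx60 (-0.04) and Mx2 (0.15). Ddx58, or RIG-I, was at 26.7 to 36.4 CPM in positive and 31.7 to 39.6 CPM in negative barcodes. Irf9, whose exons overlap Rnf31 on the same strand, was at 55.4 to 62.8 CPM and 58.4 to 66.1 CPM. The other RNA helicases rose, Ifih1 by 0.42 and Dhx58 by 0.37. Mx2 is annotated as a polymorphic pseudogene in the mouse reference.

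**Figure D4:**
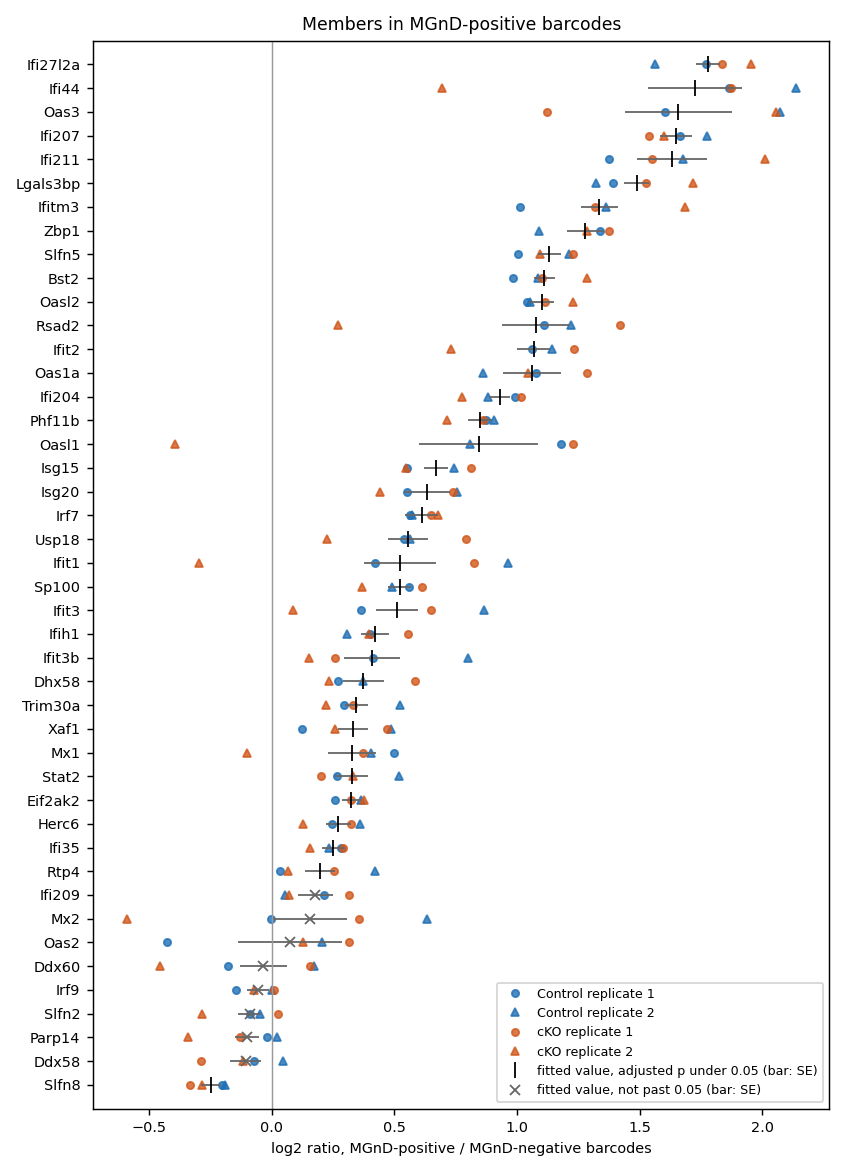
Log2 ratio of MGnD-positive to MGnD-negative CPM (x axis) for the 44 members, 1 point per library (blue Control, orange cKO; circle replicate 1, triangle replicate 2), with the fitted value and its SE in black where the adjusted p was under 0.05 and in grey where it was not. All 4 points lie right of 0 for 33 members, and Slfn8 lies left of 0 in all 4 libraries.

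Other measures moved with the state. Median depth was 10386 to 13120 UMIs in positive barcodes and 5964 to 7238 in negative ones. On barcodes thinned to 2000 UMIs, 30 members passed. Summed markers of border-associated macrophages were at 55.1 to 70.1 CPM in positive and 119.5 to 148.7 CPM in negative barcodes, and neutrophil markers at 0 to 0.639 CPM in positive barcodes. Markers of 3 other brain cell types were higher in positive barcodes of all 4 libraries: astrocytes at 6.68 to 12.4 against 1.45 to 2.64 CPM, oligodendrocytes at 38.5 to 52.9 against 26.6 to 27.9 CPM and endothelial cells at 32.1 to 44.7 against 21.4 to 26.9 CPM. Choroid plexus markers were at 1417 CPM in positive and 64.1 CPM in negative barcodes of cKO replicate 2, and at 83.9 against 419.6, 2.05 against 227.2 and 164.8 against 37.4 CPM in Control replicates 1 and 2 and cKO replicate 1. With barcodes that hold markers of another cell class left out, 37 members passed. Immediate-early genes, which respond to tissue handling, were lower in positive barcodes as a sum over 10 genes (6328 to 8471 against 11695 to 14923 CPM). Of the 10, 9 fell and 1, Atf3, rose by 0.85 on the log2 scale. The part of these genes in the results was not tested.

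Within single barcodes, at least 6 members were detected in 31.3%, 32.4%, 31.0% and 31.3% of MGnD-positive barcodes of the 4 libraries, against 16.5%, 18.1%, 16.2% and 20.4% of the rest. At least 10 were detected in 7.99% to 9.24% of the positive and in 5.05% to 6.37% of the rest. The MGnD-positive share was the higher one in all 4 libraries at both thresholds. Even so, most barcodes with at least 6 members were MGnD-negative: the positive ones made up 31.7% and 30.1% of them in Control and 26.8% and 13.7% in cKO.

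The genotype comparison asks whether deletion of miR-155 changes the module in these cells. No member passed edgeR's quasi-likelihood test on the 4 library sums at an adjusted p of 0.05 (0 of 44, and 0.0% of 13607 genes). At an unadjusted p under 0.05, 7 members were higher in cKO and 2 lower, against 7.25% of all genes, and DESeq2 called 1 member, Ifi27l2a. The median log2 fold change was 0.04 over the members and 0.01 over all genes. Values above 0 were held by 26 of 44 members and by 7035 of 13607 genes. The 2 groups did not overlap in 22 members, of which 14 were higher in cKO and 8 lower. Over all genes 39.2% did not overlap, 20.1% higher and 19.2% lower.

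Without the TMM factors 19 members were higher without overlap and 4 lower, against 32.8% and 9.55% of all genes, so the split between higher and lower differed with the scaling. The members with the smallest p were Ifit1, Ifi209, Ifit3, Mx1 and Usp18 on the higher side of cKO and Ifi27l2a, Ifitm3, Lgals3bp, Oas1a and Ifi207 on the lower side. Ifi27l2a, at the CPM values given above, had a log2 fold change of -0.59 (SE 0.12, edgeR adjusted p = 0.463). The higher cKO value was under the lower Control value. It was lower in cKO within MGnD-positive barcodes (log2 fold change -0.24) and within MGnD-negative ones (-0.49) as well.

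Ifit1 was at 12.5 and 12.6 CPM in Control and at 16.8 and 20.0 CPM in cKO, a log2 fold change of 0.55 (SE 0.12, edgeR adjusted p = 0.489). Ifi209 was at 19.2 and 21.7 CPM in Control and at 24.8 and 26.0 CPM in cKO (0.32). Ifit3 was at 49.0 and 43.2 CPM in Control and at 56.2 and 53.8 CPM in cKO (0.25). In these 3 genes the cKO libraries lay above the Control libraries without overlap, and none passed the adjusted threshold. Mx1 was at 14.9 and 14.4 CPM in Control and at 16.8 and 19.5 CPM in cKO (0.30), and Usp18 at 21.3 and 21.2 CPM against 23.7 and 26.6 CPM (0.24).

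On the lower side Ifitm3 was at 156.7 and 179.0 CPM in Control and at 146.9 and 137.2 CPM in cKO, a log2 fold change of -0.24 (edgeR adjusted p = 0.685). Within MGnD-positive barcodes alone its value was 0.12, and no member passed there (0 of 44, against 0.105% of all genes) or within MGnD-negative barcodes (0 of 44, against 0.06%). Lgals3bp likewise was at -0.16 over all barcodes and at 0.19 within MGnD-positive ones. Ifi207 had a value of -0.20 over all barcodes and 0.05 within MGnD-negative ones, and Oas1a, at 6.60 and 9.05 CPM in Control and 5.58 and 6.81 CPM in cKO, of -0.33 with overlapping groups. Ifi207 was at 19.6 and 24.4 CPM in Control and at 19.4 and 18.8 CPM in cKO. For Ifitm3, Lgals3bp and Ifi207 the sign thus differed between all barcodes and 1 of the states. The MGnD-positive share was lower in both cKO libraries, and its part in these differences was not tested.

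**Figure D5:**
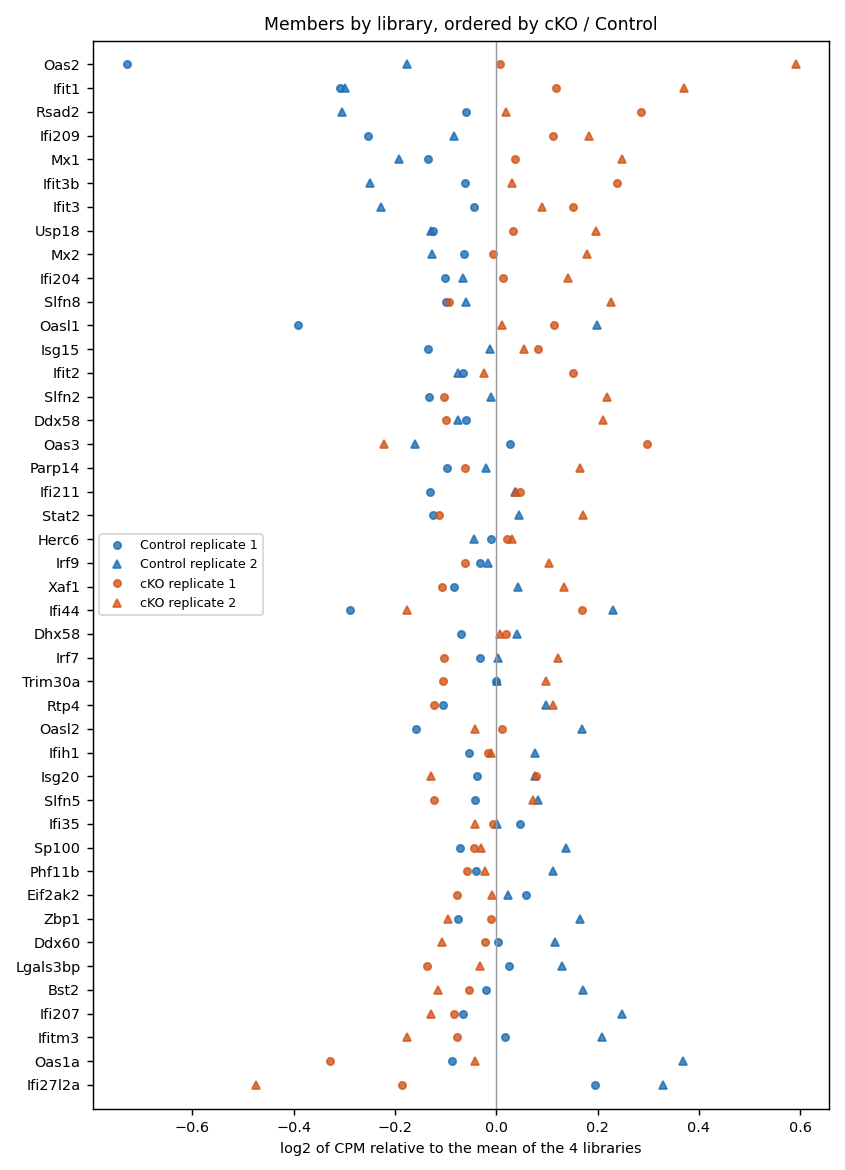
CPM of each member in each library relative to the mean of the 4 libraries (x axis, log2; blue Control, orange cKO; circle replicate 1, triangle replicate 2), ordered by the fitted genotype difference. Both Control points of Ifi27l2a lie above the mean and both cKO points below it, at 457.5, 502.4, 351.8 and 287.9 CPM.

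Single libraries moved these values. The median over the members was -0.01 without the library labelled Control replicate 1 and -0.02 without cKO replicate 2, and 0.10 and 0.09 without Control replicate 2 and cKO replicate 1. Leaving out a library leaves its group with 1, whose spread is then assumed to equal that of the other group's 2 libraries. Without cKO replicate 1, which leaves the library of the separate run code as the only cKO one, 3 members passed (Ifit1 and Mx1 higher, Ifi27l2a lower), or 6.82% of the 44, against 4.46% of 13735 genes. Without any one of the other 3 libraries none passed, including the fit without the library labelled Control replicate 1 and the fit without cKO replicate 2, which holds the 3 libraries of the shared run code. Summed heat-shock genes, a sign of handling, were at 1291 and 1176 CPM in Control and at 1488 and 2137 CPM in cKO, and their part in the genotype values was not tested. Neutrophil markers summed to 271 and 285 CPM in the libraries numbered 1 and to 0.0834 and 45.6 CPM in those numbered 2, and with barcodes holding markers of another class left out no member passed.

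Whether the MGnD difference itself depends on the genotype was tested as an interaction. No member passed edgeR's test (0 of 44, against 0.286% of all genes), and at an unadjusted p under 0.05 there were 4 higher and 1 lower, against 5.36% of all genes. The smallest adjusted p was 0.272, for Lgals3bp, with an interaction log2 value of 0.26. DESeq2 called no member either.

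Genes around the module were read from lists by role. None of the 21 interferon ligand genes had enough counts to be tested, and Ifnb1, interferon-beta, was at 0 and 0.0417 CPM in Control and at 0.0297 and 0.403 CPM in cKO. Of 11 genes of the receptors and the JAK-STAT chain, none passed for genotype, with a median log2 fold change of 0.13. In MGnD-positive barcodes 3 of the 11 rose and 5 fell, against 26.2% higher and 25.1% lower of all genes. The receptor chain Ifnar2 rose by 0.72 (SE 0.04), while Ifngr1, the interferon-gamma receptor, fell by 0.85 on the log2 scale (SE 0.04) and Socs3, an inhibitor of cytokine signalling, fell by 0.87.

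A list of nucleic acid sensors and adaptors that are not members went the other way from most members. Of 14 tested, none rose and 10 fell in MGnD-positive barcodes, against 26.2% higher and 25.1% lower of all genes. Sensors among the members differed from this list: Zbp1 rose by 1.28, Ifih1 by 0.42, Dhx58 by 0.37 and Eif2ak2 by 0.32, while Ddx58 did not pass. Tmem173, or STING, the adaptor of cytosolic DNA sensing, fell by 0.85 on the log2 scale (SE 0.04), Tlr3, which senses double-stranded RNA in endosomes, fell by 0.59, and Unc93b1, which carries such receptors to endosomes, fell by 0.41. None passed for genotype.

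Of a separate list of 46 further type I interferon-stimulated genes, 43 were tested between the states. In MGnD-positive barcodes 20 were higher and 2 lower, against 26.2% and 25.1% of all genes, with a list median of 0.23. In this list Ifitm2 rose by 1.71, Shisa5 by 0.64 and Ly6e by 0.39. For genotype none of 44 tested passed, with a median of 0.06. Genes known mainly for induction by interferon-gamma gave 8 higher and 6 lower of 20 in MGnD-positive barcodes, beside the same shares of all genes. For genotype none of the 20 passed, while all 20 values were above 0, with a median of 0.50. Over all genes 7035 of 13607 genotype values were above 0, with a median of 0.01. Within MGnD-positive barcodes 2 of 19 passed, both higher in cKO, against 0.105% of all genes. Iigp1, an immunity-related GTPase, was there at 9.16 and 10.2 CPM in Control and at 23.7 and 29.1 CPM in cKO (log2 fold change 1.45, SE 0.18, edgeR adjusted p = 0.00312). The chemokine Cxcl9 was at 6.95 and 26.2 CPM in Control and at 56.7 and 145.4 CPM in cKO (2.68, SE 0.43, edgeR adjusted p = 0.0264). Over all barcodes the smallest adjusted p, 0.0532, was that of Iigp1, at 7.05 and 6.30 CPM in Control and at 14.6 and 18.4 CPM in cKO (log2 fold change 1.3).

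The mature miR-155-5p is shown because its seed, bases 2 to 8 in capitals, gives the site that was sought in the members (RefSeq, GRCm38.p6, chr16:84714143-84714165, plus strand).
mmu-miR-155-5p: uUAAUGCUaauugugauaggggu
The match to the seed, AGCATTA, was in the annotated 3′ UTR (GENCODE M21) of 1 of the 44 members (2.27%), against 9.71% of 11801 other tested genes. The median 3′ UTR was 892 bases long in the members and 1347 in the others. The member was Trim30a, with the match in capitals in this stretch of its 3′ UTR.
Trim30a site: ctccacatAGCATTAcaaccctg
Trim30a was at 152.7 and 152.9 CPM in Control and at 142.1 and 163.6 CPM in cKO, and its groups overlapped.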

How the data were processed

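Per the submitters' processing notes, the authors used Cell Ranger 4.0.0 and mm10. The deposited matrices are unnormalized whole-number counts of UMIs for each gene in each barcode, empty droplets included. The deposited barcode and feature files (other: names) label the matrices. Whether intronic or multi-mapped reads were counted is not given in the sources used here. The members and gene lists were chosen with earlier results of these data known.

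Counts were summed over passing barcodes per library, since cells are not replicates, and tested with edgeR 4.0.16 in R 4.3.3 (filterByExpr, TMM, quasi-likelihood F test, two-sided, Benjamini-Hochberg at 0.05 over all genes). CPM are UMIs per 1000000, scaled with TMM factors (0.945 to 1.05 over libraries). The MGnD and interaction fits used 8 sums (library by state). Doublets stayed in the main result, and an alternative left out 401 barcodes with the highest Scrublet scores (scanpy 1.11.5; 0.8% per 1000 barcodes), since Scrublet's own threshold called at most 1 per library. Other alternatives were DESeq2 1.42.0, no low-count filter, no TMM, thinned barcodes, other cell classes left out, other MGnD thresholds, the replicate number as a block and each library left out. Genotype within MGnD-positive barcodes was added after seeing the data. On simulated counts the genotype fit called 51.2% of genes changed by a log2 fold of 0.585 and 87.3% of those changed by 1 (13477 genes). That simulation made 153 calls in all, which loosens the Benjamini-Hochberg threshold, while the real genotype fit made 0. The simulated shares therefore do not give the power of the real fit.

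Named genes were, by rule, the 8 members of highest mean CPM, the 5 members of smallest genotype p in each direction, the 5 largest and 5 smallest MGnD changes among those called, the 5 highest and 5 lowest variance-to-mean ratios, and up to 3 genes per further list by p. Others were named to complete a gene family or a count of 10 or fewer, after their values were seen.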

Additional observations from a re-analysis of the deposited data

How the results depend on the processing

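The number of members called for genotype was 0, but 1 with DESeq2 (Ifi27l2a), 3 without a low-count filter, 2 with the replicate number as a block (Ifit1 and Ifi27l2a) and between 0 and 3 with 1 library left out. Over all genes these fits called 0, 18, 350 and 170 genes, 17 without TMM, and 613 without cKO replicate 1 against 26 to 33 without another library; 4 to 12 passed in the fits on thinned barcodes, without other classes and within either state. The labels give the replicate numbers no shared animal, batch or day. Deviations of same-numbered libraries correlated at 0.09 over 13607 genes, and neutrophil markers followed the number (271 and 285 CPM in the libraries numbered 1). For the interaction, 37 genes in all passed, 104 without a low-count filter, 12 on thinned barcodes, 20 with DESeq2 and 29 to 151 with 1 library left out; 1 member passed without a low-count filter and between 0 and 4 with 1 library left out. The members called in the MGnD comparison came to 36 and ranged from 30 to 38 over the 11 alternatives run, and 26 of the 36 were called in all of them; over all genes 4117 passed on thinned barcodes against 6651. Some genotype value changed sign in 28 of 44 members (71 of 572 values over 13 alternatives), against 4 members for MGnD (7 of 484). Among the genes named with a genotype value the reversed ones were Ifi207 at 0.045 in MGnD-negative barcodes, and Lgals3bp at 0.19, Ifitm3 at 0.12 and Tlr3 at -0.010 in MGnD-positive ones. Over all barcodes the genotype value of Tlr3 was 0.14 (edgeR adjusted p = 0.727). Reversed MGnD values were Mx2 at -0.019 with the threshold at 2 genes, Oas2 at -0.43 with it at 4 genes, and at -0.35 on thinned barcodes, Slfn2 at 0.040 on thinned barcodes, and, with 1 library left out, Oas2 between -0.025 (without cKO replicate 1) and 0.217 and Ddx60 between -0.113 and 0.033 (without cKO replicate 2; also above 0 without the library labelled Control replicate 1). None of these 4 had passed the threshold. The log2 ratio of the summed level, cKO to Control, was -0.10 with all members, -0.0038 without Ifi27l2a and Ifitm3 and 0.029 as a median over members. At 1000 UMIs the share of barcodes with at least 6 members was 6.53%, 7.01%, 6.48% and 7.57% in Control replicates 1 and 2 and cKO replicates 1 and 2, since fewer UMIs show fewer members. The cause of the other changes was not tested. With 2 libraries a group, members below 10 CPM had the widest errors.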
